A study of Mus musculus with 4 samples.

Results

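A set of 9 genes that encode scavenger receptors was followed through mouse peritoneal macrophages, 9 of the 16403 gene identifiers with a value in at least 1 library. They were chosen by name: Msr1, Marco, Cd36, Scarb1, Scarb2, Olr1, Cd163, Stab1 and Cd68.

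The study asked how loss of TIF1a, the protein of the Trim24 gene, changes the response of macrophages to IL-4. C57BL/6 mice aged 6 to 8 weeks received 4% thioglycolate in the peritoneum, and 4 days later the lavaged cells were left to adhere for 4 h and were held in 0.5% serum. Wild-type littermates were compared with TIF1a-KO mice (genotype TIF1a-/-), in which floxed Trim24 was removed by Cre from the lysozyme M locus, so the deletion was limited to myeloid cells. Each genotype gave an untreated culture and a culture with mouse IL-4 at 20 ng/mL for 6 h, and RNA sequencing gave 1 library for each of the 4 groups. The number of mice behind each library was not stated.

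Because there was 1 library per group, no value from a pair of libraries has a replicate check. Every p-value from a pair of libraries covers counting error, compares those libraries and not the conditions, and is too small wherever cultures or animals vary.

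Scavenger receptors are cell-surface or endosomal proteins that bind modified lipoproteins, apoptotic cells, bacteria and other polyanionic or lipid ligands and carry them into the macrophage. They are grouped by structure rather than by descent: class A receptors are collagenous trimers, class B receptors span the membrane at both ends, and other classes carry lectin-like, cysteine-rich or fasciclin domains. In macrophages they serve clearance, lipid uptake and host defence, and several of them, Cd36 and Cd163 among them, are used as markers of alternatively activated cells.

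The 4 libraries held between 11026033 and 11250099 expected reads. Trim24 checked the genotype labels, with 2.55 and 1.48 FPKM (fragments scaled to transcript length and library size) in the untreated and IL-4 wild-type libraries against 0.06 and 0.14 in the corresponding TIF1a-KO libraries. The macrophage markers Csf1r (135 to 285 FPKM) and Adgre1 (68.5 to 97.7 FPKM) were present in every library. All 10 markers of that list had a value in each library, with Aif1 (1.14 to 2.55 FPKM) and Fcgr1 (4.99 to 8.90) low. Csf1r was higher with IL-4 in wild-type and TIF1a-KO (log2 ratios 0.90 and 1.07) and Cd14 lower (-1.07 and -0.88). Markers of other cells that the lavage could hold were low, with 3 or 4 of the 5 eosinophil markers at 0 in each library and at most 2 markers of the other lists named next. The summed FPKM was 1.06 to 2.04 for eosinophils, 1.07 to 1.89 for T and NK cells, 2.51 to 2.75 for dendritic cells, 4.23 to 6.52 for B cells, 3.58 to 8.96 for mast cells and 4.42 to 7.14 for resident large peritoneal macrophages. Neutrophil markers summed to 51.0 to 87.9 FPKM, most of it Csf3r (40.8 to 76.3 FPKM), while S100a9, Ly6g and Retnlg had no value in any library. In this bulk material, fewer cells of a type and less RNA per cell cannot be told apart. The IL-4 wild-type library also stood apart by transcript length: across 10443 genes the log2 ratio of IL-4 to untreated fell with length in the wild-type pair (Spearman rho -0.37) and hardly in the TIF1a-KO pair (rho -0.11), and the ratio of TIF1a-KO to wild-type with IL-4 rose with it (rho 0.52). Longer members were therefore also examined with this trend subtracted.

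The levels of the 9 genes spanned several orders of magnitude, and their order was led by the endosomal and fatty-acid receptors. Cd68, the heavily glycosylated macrosialin of late endosomes and lysosomes, had 3240.4 FPKM in the untreated wild-type library, 3465 in the IL-4 wild-type library, 3378 in the untreated TIF1a-KO library and 3005 in the IL-4 TIF1a-KO library. That placed it 13 or 14 from the top of all genes in each library, and it supplied 79.1% to 86.4% of the summed FPKM of the 9 genes. Cd36, the class B receptor for oxidised lipoproteins and long-chain fatty acids, came next, between rank 78 and rank 169.

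Scarb2, Msr1, Scarb1 and Marco formed a middle group between 19.0 and 44.3 FPKM. Stab1 lay below them at 3.76 to 10.3 FPKM, Olr1 at 0.46 to 3.30 and Cd163 at 0.07 to 0.24 FPKM. In the untreated wild-type library Scarb2 (44.2 FPKM), Msr1 (39.5) and Scarb1 (37.95) followed each other closely and Marco (19.0) was well below. In the IL-4 TIF1a-KO library the order of that group was Scarb2 (37.4 FPKM), Marco (32.3), Scarb1 (27.2) and Msr1 (25.2). Msr1 and Scarb1 stood next to each other in the IL-4 wild-type library, at 24.99 and 25.01 FPKM, a gap smaller than their counting error.

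**Figure D1:**
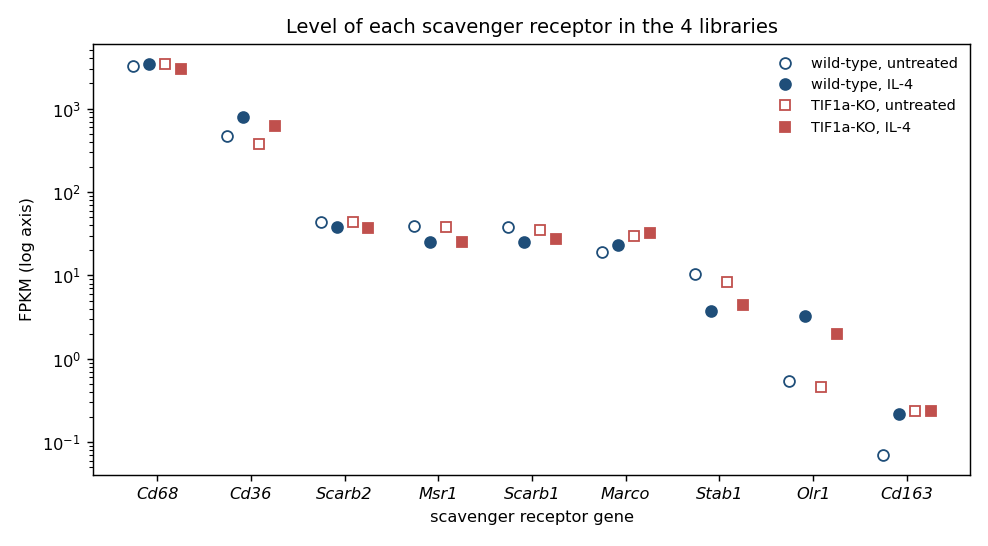
Level of each of the 9 scavenger receptor genes in FPKM (log axis) in the 4 libraries, ordered by mean level; each point is 1 library, so there are no error bars. Cd68 and Cd36 stand above the other 7 genes in every library, and Olr1 and Stab1 show the widest gaps between untreated (open) and IL-4 (filled) points among the genes other than Cd163.

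The stretches of 250 bases before the transcript start are shown for the 4 members on which the IL-4 and genotype results turn, Olr1, Cd36, Stab1 and Marco. They are from the RefSeq promoter table of build GRCm38.p6, are read 5′ to 3′ on the strand of the gene, and end at the base before the start that the table uses. RefSeq gave a promoter for 7 of the 9 members, without Msr1 and Scarb1. Capitals mark GAGGAA or its reverse complement TTCCTC, the core motif of PU.1, and TGANTCA, the AP-1 motif.
Olr1 (chr6:129507166-129507415, minus strand): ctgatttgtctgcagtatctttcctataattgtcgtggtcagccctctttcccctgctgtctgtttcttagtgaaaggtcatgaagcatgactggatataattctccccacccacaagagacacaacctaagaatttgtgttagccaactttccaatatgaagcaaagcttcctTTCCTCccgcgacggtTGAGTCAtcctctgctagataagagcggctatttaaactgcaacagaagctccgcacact
Cd36 (chr5:17835897-17836146, minus strand): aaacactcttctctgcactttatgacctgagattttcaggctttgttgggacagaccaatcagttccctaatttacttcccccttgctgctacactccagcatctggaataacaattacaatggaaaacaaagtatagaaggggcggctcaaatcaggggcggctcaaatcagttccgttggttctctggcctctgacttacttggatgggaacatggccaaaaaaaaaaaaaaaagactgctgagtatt
Stab1 (chr14:31168642-31168891, minus strand): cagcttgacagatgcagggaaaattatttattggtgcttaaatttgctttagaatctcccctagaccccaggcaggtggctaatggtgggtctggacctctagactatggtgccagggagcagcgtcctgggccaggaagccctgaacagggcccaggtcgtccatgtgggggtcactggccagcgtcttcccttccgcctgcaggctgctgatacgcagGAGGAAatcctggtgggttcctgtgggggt
Marco (chr1:120505025-120505274, minus strand): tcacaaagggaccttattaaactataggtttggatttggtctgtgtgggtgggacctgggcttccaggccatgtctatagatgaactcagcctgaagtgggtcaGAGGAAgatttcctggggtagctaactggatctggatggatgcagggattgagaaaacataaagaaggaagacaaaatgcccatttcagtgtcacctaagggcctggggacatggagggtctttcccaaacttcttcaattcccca

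In the Olr1 promoter the PU.1 core lay 76 to 71 bases before the start and the AP-1 motif 60 to 54 bases before it. GAGGAA lay 30 to 25 bases before the start of Stab1 and 146 to 141 bases before that of Marco, and the Cd36 window held neither motif. Over the 300 bases from 250 before to 50 after the start, on either strand, GAGGAA was found in 4 of the 7 member promoters (Marco, Olr1, Cd68 and Stab1) against 28.3% of all 32851 promoters. TGANTCA was found in 2 of 7 (Olr1 and Cd68) against 7.81%. The STAT6 motif, TTC and GAA with 4 bases between them, was found in 1 of 7, Cd36, where it lay 21 to 30 bases after the start, against 6.95% of all promoters. Cd36 spans chr5:17781690-17888959 with 5 transcripts, so the start used here lies inside the gene. Olr1 spans chr6:129479150-129507350 with 3 transcripts, so its start and both of its marked motifs lie inside the gene too. The starts used for Stab1 (chr14:31139017-31168651) and Cd163 (chr6:124304636-124330529) lie slightly inside their genes. Other starts of these genes were not searched. The shorter spacing TTCNNNGAA (8.30% of all), the E-box CACGTG (7.15%), the direct repeat of AGGTCA with 1 base between, the form bound by PPAR and RXR (0.0396%) and TATAAA (13.6%) were found in none of the 7. These are letter matches in a short window and do not show binding.

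The first comparison asked what IL-4 did in wild-type macrophages. A gene was called when the 2-sided Fisher exact test on its reads gave a Benjamini-Hochberg adjusted p under 0.05 over all genes and the fold exceeded 1.5 on the log2(FPKM + 0.1) scale. With IL-4, Cd36 and Olr1 were called higher and Msr1, Scarb1 and Stab1 lower, which is 5 of the 9 genes, while 12.8% of all genes tested were called. By direction the background was 4.91% higher and 7.88% lower. The median log2 ratio was 0.10 over the 9 genes and -0.03 over all genes tested.

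The same comparison in TIF1a-KO macrophages called 4 of the 9, against 9.32% of all genes (5.29% higher and 4.03% lower). Cd36 and Olr1 were again higher, and Msr1 and Stab1 lower. The median was -0.17 over the 9 genes and 0.00 over all. The pairs for each genotype used separate libraries, and 7 of the 9 genes had the same sign in both. The other two were Cd68, with ratios of opposite sign, and Cd163, with a TIF1a-KO ratio of 0.00. With an assumed coefficient of variation of 0.2 between cultures added to counting error, Olr1 and Stab1 were called in wild-type, against 1.65% of all genes, and Olr1 in TIF1a-KO, against 1.73%.

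Among the class B receptors, Cd36 had the highest level and was higher with IL-4. It had 467 FPKM in the untreated wild-type library, 795 in the IL-4 wild-type library, 377 in the untreated TIF1a-KO library and 617 in the IL-4 TIF1a-KO library. Both IL-4 libraries lay above both untreated libraries, and within each treatment the TIF1a-KO library was the lower. The IL-4 ratio was 1.70-fold in wild-type (log2 ratio 0.77 ± 0.01, counting SE) and 1.63-fold in TIF1a-KO (0.71 ± 0.02), from at least 14833 reads in each library.

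Scarb1 encodes SR-BI, the receptor through which cells take cholesteryl esters from high-density lipoprotein. Its level was 37.95 FPKM in untreated wild-type, 25.0 in IL-4 wild-type, 35.4 in untreated TIF1a-KO and 27.2 in IL-4 TIF1a-KO. Both IL-4 libraries were below both untreated ones, the opposite order from Cd36. The fold was 1.52 lower in wild-type (log2 -0.60 ± 0.07), just past the limit, and 1.30 lower in TIF1a-KO (log2 -0.38 ± 0.07, adjusted p = 5.51e-07 by Fisher's exact test), under it. With both libraries of the pair rescaled by TMM the wild-type log2 ratio was -0.56 and was no longer called, nor was it with a pseudocount of 1 FPKM (-0.58). The ratio of Cd36 to Scarb1 FPKM was 12.3 in untreated wild-type and 31.8 with IL-4, and 10.7 and 22.6 in the TIF1a-KO libraries.

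Scarb2 encodes LIMP-2, a class B protein of the lysosomal membrane that carries beta-glucocerebrosidase to lysosomes. Its levels were 44.2 FPKM in untreated wild-type, 38.2 in IL-4 wild-type, 44.3 in untreated TIF1a-KO and 37.4 in IL-4 TIF1a-KO, a range of 1.18-fold. The IL-4 log2 ratios of -0.21 ± 0.04 in wild-type and -0.24 ± 0.04 in TIF1a-KO differed from 0 by more than counting error (adjusted p = 1.25e-05 and 3.27e-07, Fisher's exact test) and were well inside 1.5-fold. Scarb2 is long (4729 bases), and with the length trend removed its wild-type ratio was -0.02 and its TIF1a-KO ratio -0.21.

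The collagenous class A receptors moved apart from each other. Msr1, the SR-A receptor for acetylated lipoprotein, had 39.5 FPKM in untreated wild-type, 25.0 in IL-4 wild-type, 38.3 in untreated TIF1a-KO and 25.2 in IL-4 TIF1a-KO. The untreated libraries lay close together and so did the IL-4 libraries, well below them, in either genotype. The fold was 1.58 lower with IL-4 in wild-type (log2 -0.66 ± 0.08, adjusted p = 5.28e-17) and 1.52 lower in TIF1a-KO (-0.60 ± 0.08, adjusted p = 2.89e-13, both Fisher's exact test). The latter stood just past the limit and was not called with a pseudocount of 1 FPKM (-0.58).

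Marco, the class A receptor that binds bacteria and inhaled particles, was not called with IL-4 in either genotype. Its levels were 19.0 FPKM in untreated wild-type, 23.2 in IL-4 wild-type, 29.8 in untreated TIF1a-KO and 32.3 in IL-4 TIF1a-KO, so both TIF1a-KO libraries lay above both wild-type libraries. The IL-4 log2 ratio was 0.28 ± 0.09 in wild-type (adjusted p = 0.00998) and 0.12 ± 0.08 in TIF1a-KO (adjusted p = 0.326, Fisher's exact test). The ratio of Marco to Msr1 FPKM was 0.482 and 0.928 in the untreated and IL-4 wild-type libraries, and 0.778 and 1.28 in the TIF1a-KO libraries, where the IL-4 culture was the only library of the 4 with more Marco than Msr1.

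Olr1 encodes LOX-1, a lectin-like receptor for oxidised low-density lipoprotein, and showed the widest IL-4 ratio of the 9 genes from a low level. It had 0.55 FPKM (22 reads) in untreated wild-type, 3.30 (133 reads) in IL-4 wild-type, 0.46 (18 reads) in untreated TIF1a-KO and 2.01 (80 reads) in IL-4 TIF1a-KO. Both IL-4 libraries stood above both untreated ones, and the IL-4 wild-type library was the highest. On the log2(FPKM + 0.1) scale, which understates the change of a low gene, the fold was 5.23 in wild-type (log2 2.39 ± 0.33) and 3.77 in TIF1a-KO (1.91 ± 0.37). As CPM, reads scaled to library size alone, the untreated and IL-4 wild-type values were 1.99 (95% Wilson interval 1.32 to 3.02) and 11.8 (9.98 to 14.01), and those of TIF1a-KO were 1.63 (1.03 to 2.58) and 7.26 (5.83 to 9.03). These intervals cover counting error alone.

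Stab1 encodes stabilin-1, a fasciclin-domain receptor for acetylated lipoprotein and SPARC, and had the lowest IL-4 ratios of the 9. Its level was 10.3 FPKM (924 reads) in untreated wild-type, 3.76 (343 reads) in IL-4 wild-type, 8.39 (750 reads) in untreated TIF1a-KO and 4.48 (400 reads) in IL-4 TIF1a-KO. The wild-type library was the higher without IL-4 and the lower with it. The fold was 2.70 lower in wild-type (log2 -1.43 ± 0.09) and 1.85 lower in TIF1a-KO (-0.89 ± 0.09).

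Stab1 is also the longest of the 9 (7995 bases). With the length trend removed, the ratios were -1.01 in wild-type (adjusted p = 1.27e-30) and -0.78 in TIF1a-KO (adjusted p = 2.92e-18, exact binomial test), still called in both. Its 3′ end overlaps Nt5dc2 by annotation (chr14:31131089-31139124), a gene with 159, 64, 117 and 32 reads in the same order of libraries, and whether the counting used strand was not stated. Endothelial markers, which Stab1 can accompany, summed to 15.7, 11.8, 15.8 and 17.4 FPKM, mostly Vwf, with Cdh5 at 0.04 to 0.11 FPKM and Pecam1 at 0.17 to 0.44. Kdr, which encodes the VEGF receptor VEGFR2 and is in the same list, had 2.80, 1.06, 2.58 and 1.17 FPKM in that order and was called lower with IL-4 in both genotypes (log2 -1.32 and -1.08), as Stab1 was. No other endothelial marker with a value was called with IL-4 in either genotype. Their log2 ratios in wild-type and TIF1a-KO were -0.29 and 0.26 for Vwf, 1.0 and 0.81 for Pecam1, and -0.79 and 0.49 for Tie1. That of Cdh5 was 0.00 in both. The part of these markers in the Stab1 result was not tested.

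Cd163, the receptor for haptoglobin-haemoglobin complexes, was near the limit of detection. It had 0.07 FPKM (3.42 expected reads) in untreated wild-type, 0.22 (11.02) in IL-4 wild-type, 0.24 (11.97) in untreated TIF1a-KO and 0.24 (11.6) in IL-4 TIF1a-KO. The untreated wild-type library was the lowest, at about the 3 reads that a count of 0 would allow. The log2 ratio with IL-4 was 0.91 ± 0.88 in wild-type (adjusted p = 0.144) and 0.00 ± 0.58 in TIF1a-KO (adjusted p = 1, Fisher's exact test). A difference was not detectable at this depth.

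Cd68 varied least of the 9, by 1.15-fold over the 4 libraries. The IL-4 log2 ratio was 0.10 ± 0.01 in wild-type and -0.17 ± 0.01 in TIF1a-KO, both past counting error with at least 41316 reads in each library and both under the fold limit. Cd68 is the shortest member (1262 bases), and its wild-type ratio was -0.04 with the length trend removed.

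**Figure D2:**
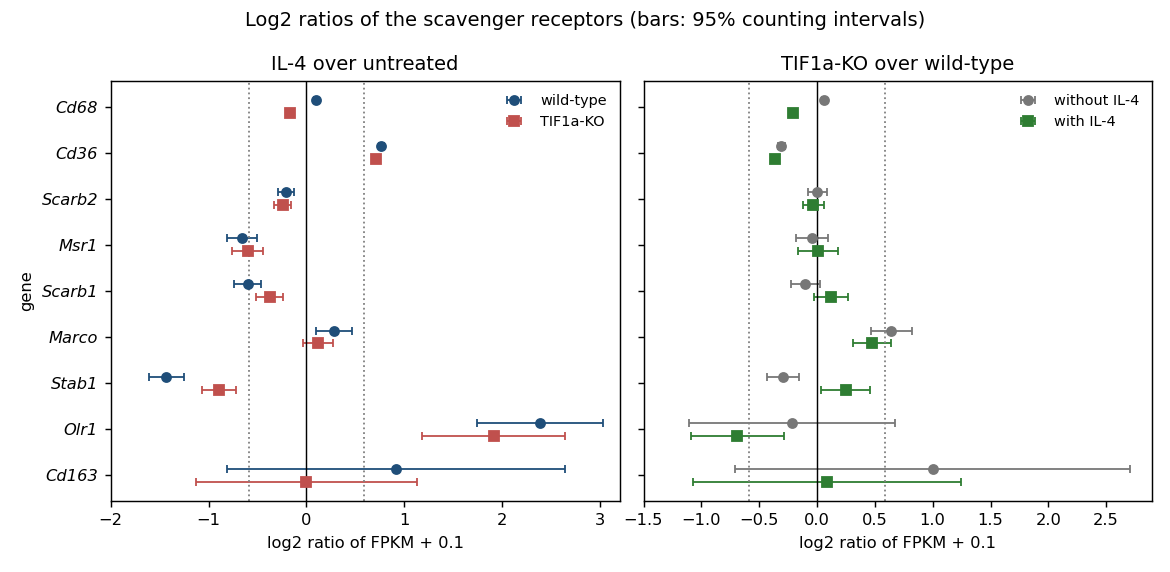
Log2 ratios of FPKM + 0.1 for the 9 genes, IL-4 over untreated by genotype (left) and TIF1a-KO over wild-type by treatment (right); bars are 95% counting intervals, and dotted lines mark 1.5-fold. With IL-4, Olr1 and Cd36 lie right of the upper line and Stab1 and Msr1 left of the lower line in both genotypes, while between genotypes Marco without IL-4 and Olr1 with IL-4 were called.

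The second comparison asked whether TIF1a-KO and wild-type macrophages differed at the same treatment. Without IL-4, 1 of the 9 genes was called, Marco, against 1.58% of all genes tested (0.839% higher and 0.742% lower). With IL-4, 1 of the 9 was called, Olr1, against 3.81% of all genes (3.05% higher and 0.764% lower). The median log2 ratio of TIF1a-KO to wild-type was -0.05 without IL-4 and 0.01 with it over the 9 genes, and -0.0038 and 0.02 over all genes. Each genotype comparison shares its libraries with the IL-4 comparisons, so the values are set side by side and not as separate evidence.

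Marco was 1.56-fold higher in TIF1a-KO without IL-4 (log2 0.64 ± 0.09, adjusted p = 6.75e-11) and 1.39-fold higher with IL-4 (0.48 ± 0.08, adjusted p = 1.94e-07, Fisher's exact test), the latter under the fold limit. Fibroblast markers summed to 45.9, 38.9, 23.3 and 43.2 FPKM in untreated wild-type, IL-4 wild-type, untreated TIF1a-KO and IL-4 TIF1a-KO, and 5 of the 6 were called lower in TIF1a-KO without IL-4. Mesothelial markers summed to 5.54 and 5.92 FPKM in wild-type and 2.73 and 3.89 in TIF1a-KO. The macrophage markers summed to 13802 and 13169 FPKM in untreated and IL-4 wild-type and 7742 and 7100 in TIF1a-KO. Most of it was Lyz2, the gene of the locus that carries the Cre, at 11289 and 10811 against 5193 and 4761 FPKM. Lyz2 was the only macrophage marker called lower in TIF1a-KO at either treatment. The next largest, Tyrobp, had 1455 and 1177 FPKM in wild-type and 1451 and 1144 in TIF1a-KO. Mertk was called higher in TIF1a-KO with IL-4 (log2 0.60). Summed mast cell markers were higher in TIF1a-KO, as Marco was, at 4.58 and 3.58 FPKM in untreated and IL-4 wild-type and 8.96 and 5.50 in TIF1a-KO. Cma1 was called higher in TIF1a-KO without IL-4 (log2 1.91, 9 and 37 reads) but not with it (0.02, 13 and 13 reads). Cpa3 was called with IL-4 (1.21, 15 and 36 reads) and not without it (1.02). Tpsb2 was not called (0.29 and 0.29). Of all genes tested, 0.839% were called higher without IL-4 and 3.05% with it. The part of these cells in the Marco result was not tested.

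Olr1 was 1.61-fold lower in TIF1a-KO with IL-4 (log2 -0.69 ± 0.20, adjusted p = 0.00459, Fisher's exact test), from 133 and 80 reads. Without IL-4 the log2 ratio was -0.21 ± 0.45, from 22 and 18 reads. With a pseudocount of 1 FPKM the IL-4 ratio was -0.51 and was not called.

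Cd36 was lower in the TIF1a-KO library by 0.31 ± 0.02 (log2) without IL-4 and by 0.37 ± 0.01 with it, both past counting error and both under the fold limit. Stab1 differed by -0.30 ± 0.07 without IL-4 (adjusted p = 0.000812) and by 0.25 ± 0.11 with it (adjusted p = 0.0827, Fisher's exact test). Removing the length trend turned the sign of the latter, to -0.12. Cd68 differed by 0.06 ± 0.01 and -0.21 ± 0.01. For Msr1, Scarb1, Scarb2 and Cd163 neither genotype ratio passed the test, and those of Msr1, Scarb1 and Scarb2 lay between -0.10 and 0.12. With the length trend removed, the Scarb2 ratio with IL-4 was -0.19, which passed the adjusted p and stayed under the fold limit. The Cd163 ratios were 1.0 ± 0.87 and 0.09 ± 0.59.

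**Figure D3:**
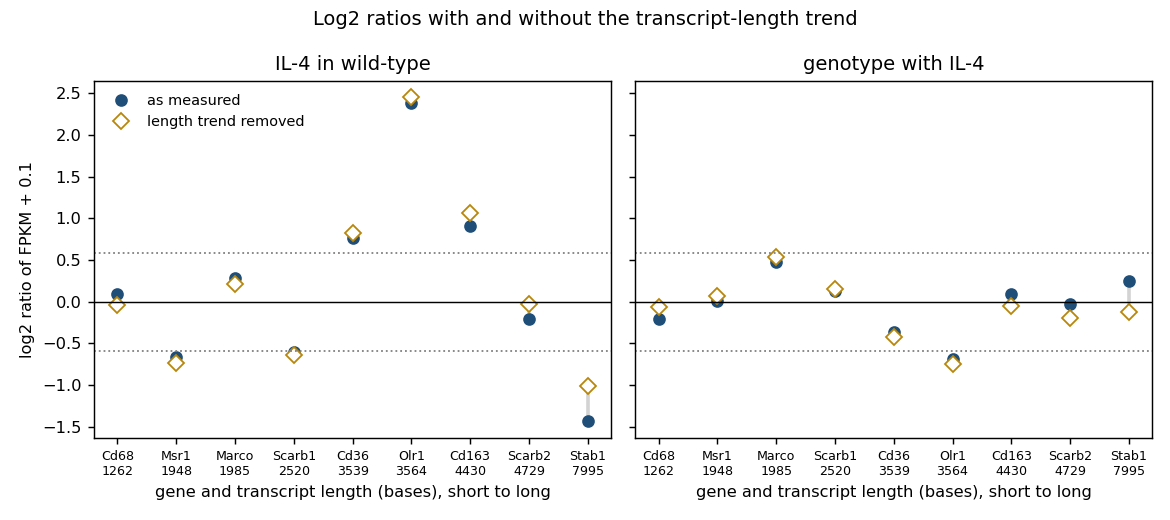
Log2 ratios of FPKM + 0.1 for the 9 genes, ordered by transcript length in bases, as measured (circles) and with the length trend removed (diamonds), for IL-4 in wild-type (left) and TIF1a-KO over wild-type with IL-4 (right); dotted lines mark 1.5-fold. Stab1, the longest, moves most, from -1.43 to -1.01 on the left and from 0.25 to -0.12 on the right.

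The difference of the 2 IL-4 responses, TIF1a-KO minus wild-type, was tested directly against counting error on log2 reads. None of the 9 genes passed both the adjusted p and 1.5-fold, against 2.43% of the genes tested (2.07% higher and 0.358% lower), while 3 of the 9 passed the adjusted p alone, against 10.8% of the genes tested. These were Stab1 (0.55, 95% interval 0.30 to 0.80, adjusted p = 0.000413), Cd68 (-0.27, -0.29 to -0.24) and Cd36 (-0.06, -0.10 to -0.02, adjusted p = 0.038). With the length trend removed the Stab1 difference was 0.24 (adjusted p = 0.386). The Olr1 difference of -0.42 had an interval of -1.39 to 0.55, and those of Msr1 (0.07, -0.15 to 0.29), Marco (-0.17, -0.41 to 0.07), Scarb1 (0.22, 0.03 to 0.41, adjusted p = 0.161), Scarb2 (-0.04, -0.16 to 0.09) and Cd163 (-1.69, -3.75 to 0.38) did not pass. With the length trend removed, the Scarb2 difference was -0.19, which passed the adjusted p and stayed under 1.5-fold. With an assumed coefficient of variation of 0.2 between cultures, the adjusted p was 1 for each of the 9.

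An additive model over the 4 libraries (edgeR quasi-likelihood, genotype plus treatment, 1 residual degree of freedom) used the likeness of the 2 pairs as its sole replication. Its calls needed an adjusted p under 0.05 and had no fold limit. The Scarb1 and Marco ratios called here were under 1.5-fold. For IL-4 it called 5 of the 9 genes against 25.3% of all genes (12% higher and 13.3% lower). Olr1 (log2 2.39, adjusted p = 5.66e-06) and Cd36 (0.75, adjusted p = 2.6e-05) were higher in the edgeR fit, and Stab1 (-1.17, adjusted p = 6.73e-06), Msr1 (-0.63, adjusted p = 0.000233) and Scarb1 (-0.48, adjusted p = 0.00236) lower. For genotype it called Marco alone (0.56, adjusted p = 0.0115), 1 of the 9 against 1.66% of all genes (1.29% higher and 0.373% lower). The Marco call was lost with DESeq2 (adjusted p = 0.273) and when every gene with a read entered the edgeR fit (adjusted p = 0.261).

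Other scavenger receptors gave a second view of the family. Of 19 further receptor genes, 17 had a value and 8 reached a mean of 0.5 FPKM. In wild-type IL-4 cells 3 were higher and 2 lower by the same rule, and 3 higher and 1 lower in TIF1a-KO. Of all genes tested, 4.91% were higher and 7.88% lower in wild-type, and 5.29% and 4.03% in TIF1a-KO. For this list and those below, the shares of all genes take in genes under 0.5 FPKM, which the list counts leave out. The median log2 ratio of the 8 was -0.06 in wild-type and 0.02 in TIF1a-KO, beside -0.01 and 0.01 over all genes at that level. Mrc1, the mannose receptor, had 11.4, 115, 15.9 and 126 FPKM in untreated wild-type, IL-4 wild-type, untreated TIF1a-KO and IL-4 TIF1a-KO (log2 ratios 3.32 and 2.99). Clec7a, the beta-glucan receptor dectin-1, was also higher (1.34 and 0.98), and Cxcl16, a transmembrane chemokine that binds oxidised lipoprotein, was lower (-1.18 and -1.10). The remaining calls, named after their values were seen, were Cd44, the hyaluronan receptor, higher in both genotypes (1.02 and 0.99), and Lrp1, lower in wild-type.

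Between genotypes, 1 of these 8 was called higher in TIF1a-KO without IL-4 and 2 with it, none lower. Of all genes tested, 0.839% were called higher and 0.742% lower without IL-4, and 3.05% higher and 0.764% lower with it. Colec12, a collectin of class A, had 20.8 FPKM in untreated wild-type, 16.2 in IL-4 wild-type, 63.2 in untreated TIF1a-KO and 47.9 in IL-4 TIF1a-KO. Both TIF1a-KO libraries lay far above the wild-type libraries, as for Marco and by more (log2 ratios 1.60 and 1.56). The second gene called with IL-4 was Lrp1, a large endocytic receptor. Its log2 ratios were -1.22 for IL-4 in wild-type and 0.93 for genotype with IL-4, and neither was called once the length trend was removed (-0.50 and 0.31).

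Genes that handle the ligands were measured beside the receptors. Of 20 genes of fatty acid and sterol handling, IL-4 gave 2 calls up and 2 down in wild-type, and 3 up and 3 down in TIF1a-KO, beside the same shares of all genes. The medians were -0.12 and -0.05, against -0.01 and 0.01 over all genes at that level. Pparg, the lipid-activated nuclear receptor, had 47.9 FPKM in untreated wild-type, 142 in IL-4 wild-type, 47.2 in untreated TIF1a-KO and 135 in IL-4 TIF1a-KO. As for Cd36, both IL-4 libraries stood above both untreated ones (log2 ratios 1.57 and 1.51). Abca1, the cholesterol efflux pump, was lower with IL-4 (-1.29 and -1.03), and so was the lipoprotein lipase gene Lpl (-0.69 and -0.77). The wild-type Lpl ratio was -0.58 with the length trend removed and was then not called. Calls outside the naming rule, named after their values were seen, were Alox15, the lipoxygenase, higher in both genotypes from at most 1.06 FPKM (2.21 and 1.94), and, past the limit in TIF1a-KO, Abcg1 (0.67 higher, 0.56 in wild-type) and Angptl4 (-0.76, -0.54 in wild-type). The difference of the responses did not pass for either (adjusted p = 0.154 for Abcg1 and 0.799 for Angptl4, normal test on counting error), and with the length trend removed Abcg1 was called in wild-type too (0.85). Between genotypes, 0 of the 20 were called without IL-4 by Fisher's exact test, and Abca1 was called higher with it (0.72), a call lost with the length trend removed (0.25). The shares over all genes were 1.58% without IL-4 and 3.81% with it. In the additive model, by adjusted p with no fold limit, Lpl (0.47) and Abca1 (0.59) were called higher in TIF1a-KO, beside 1.29% of all genes.

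Of 11 haemoglobin, haem and iron genes at 0.5 FPKM or above, IL-4 gave 1 call up and 3 down in wild-type (4.91% and 7.88% of all genes), and 1 up and 2 down in TIF1a-KO (5.29% and 4.03%). The medians were -0.19 and -0.16, against the same -0.01 and 0.01. Tfrc, the transferrin receptor, was higher (log2 ratios 2.06 and 1.82) and Fth1, the ferritin heavy chain, lower (-0.73 and -0.78). The iron exporter gene Slc40a1 was lower in both genotypes from at most 1.25 FPKM (-1.55 and -2.38), and Lrp1, which belongs to this list too, in wild-type. Between genotypes Hp, the haptoglobin gene, was called lower without IL-4 (-0.69) and Lrp1 higher with it. Of all genes tested, 0.742% were called lower without IL-4 and 3.05% higher with it. Slc40a1 and Hp were named after their values were seen. Of 10 late endosome and lysosome membrane genes, the compartment of Cd68 and Scarb2, 1 was called with IL-4 in each genotype, Laptm4a, a lysosomal transmembrane protein (0.81 and 0.72 higher), a share near the 12.8% and 9.32% of all genes. None of the 10 was called between genotypes by Fisher's exact test, beside 1.58% of all genes without IL-4 and 3.81% with it. The medians of the 10 between genotypes were -0.0082 and -0.07.

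**Figure D4:**
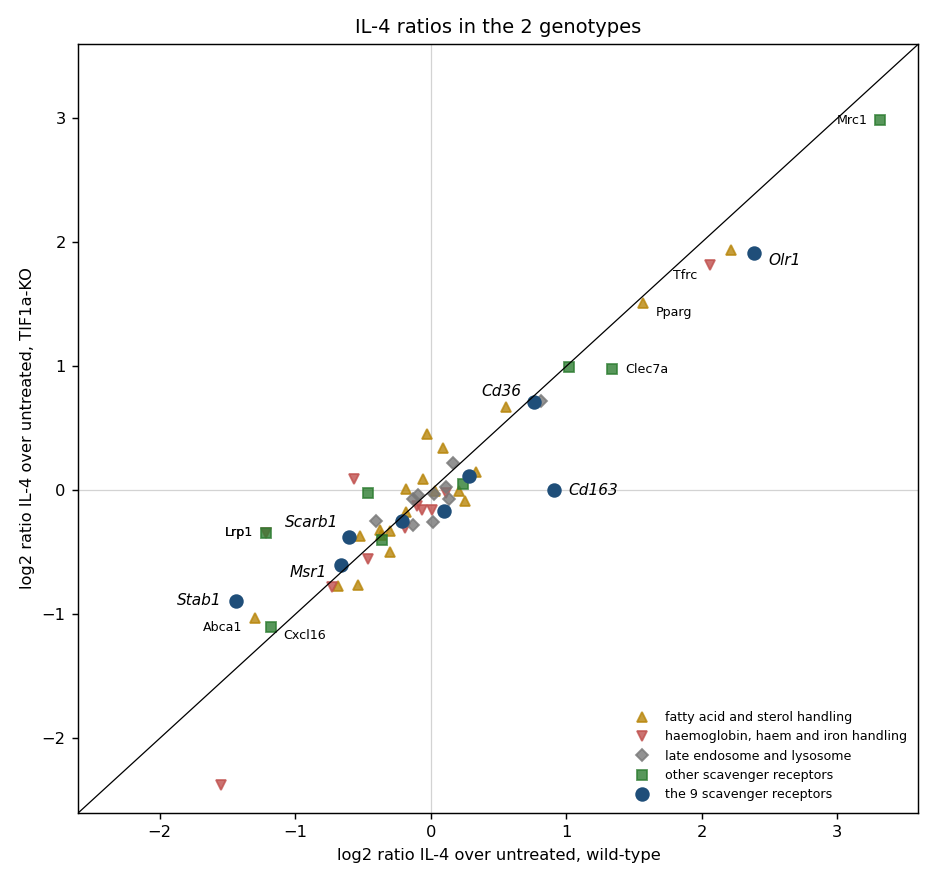
Log2 ratios of IL-4 over untreated in wild-type (horizontal) and TIF1a-KO (vertical) for the 9 scavenger receptor genes and 4 related gene lists at a mean of 0.5 FPKM or above; each point is 1 gene and the line marks equal ratios. Olr1 (2.39 and 1.91) and Stab1 (-1.43 and -0.89) lie at the ends of the 9 receptors, and Cd163, with 3.42 to 11.97 expected reads, lies off the line.

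For the 4 members with the widest range, the genes with the nearest pattern over the 4 libraries were sought over 7440 genes whose mean reached 5 FPKM, by the Euclidean distance of centred log2(FPKM + 0.1) values. Nearest to Olr1 was Mgp (distance 0.217), which encodes matrix Gla protein, with 2.93, 15.3, 2.93 and 9.41 FPKM in untreated wild-type, IL-4 wild-type, untreated TIF1a-KO and IL-4 TIF1a-KO. Cnrip1 followed at a distance of 0.350. Nearest to Stab1 were Tbkbp1 (0.134) and Gpr132 (0.139), and nearest to Cd36 were Pop4 (0.0648) and Rars (0.0697). Those of Cd163 were P2ry14 (0.256) and Pard6a (0.310) and rest on its few reads. Over 4 points many genes come close, so these are descriptions.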

How the data were processed

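RNA from 4 cultures was sequenced on an Illumina HiSeq, with Bowtie and RSEM on GRCm38 (mm10) named in the submitters' processing notes. Their versions and the use of strand are not given in the sources used here. The authors deposited, per gene, RSEM expected counts (22.2% to 22.8% of them not whole), FPKM normalized per length and library, and transcript length. The 0 columns without a sample were left out.

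Totals were 11026033 to 11250099 expected reads, and a count of 0 would allow 3 reads, or 0.267 to 0.272 CPM (reads scaled to library size). Symbols and coordinates came from the RefSeq table for GRCm38.p6, which gave a symbol to 16365 of 16403 identifiers.

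From the files, log2 ratios of FPKM + 0.1 were computed. Pairs were tested by a 2-sided Fisher exact test on rounded counts with Benjamini-Hochberg adjustment over all genes with a read, and called under 0.05 and above 1.5-fold, the limits of the study's methods. Differences of responses were tested against counting error for genes with at least 10 reads, adding 0.5 to counts. The additive model used edgeR 4.0.16 with TMM and filterByExpr (R 4.3.3), with DESeq2 1.42.0 and limma 3.58.1 as alternatives. Additive calls needed an adjusted p under 0.05 and had no fold limit. The length trend was a lowess curve (fraction 0.3) over genes of at least 200 bases and 1 FPKM. In data simulated from these libraries, the pair test recovered 198 of 200 changed genes with 4 false calls over 15412 genes, the difference test 190 with 3 over 13437, and the additive model 197 with 12 over 11747. The pair and difference simulations drew counting error alone, and the additive one a variation smaller than the assumed coefficient of 0.2. Changed genes were well read and changed 2-fold. The simulations therefore do not show how many calls would be false where cultures vary more.

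Members, lists and tests were chosen with earlier results of these data known. Named beside the 9 members and Trim24 were at most 3 genes per list for IL-4 and 3 for genotype, those called the same way in both pairs with the largest mean log2 ratio and at least 1 FPKM, and, for the 4 members of widest range, the 2 genes of nearest pattern. Alternatives changed the pseudocount, scaling, filter, fold limit, assumed variation, length trend and tool.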

Additional observations from a re-analysis of the deposited data

Results flagged for a closer look

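The IL-4 response differed between genotypes past counting error for 3 of the 9 genes, each by less than 1.5-fold, against 10.8% of all genes tested. As TIF1a-KO minus wild-type on the log2 scale, the difference was 0.55 for Stab1, -0.27 for Cd68 and -0.058 for Cd36. For Cd68 the response was 0.10 in wild-type and -0.17 in TIF1a-KO, with opposite signs, and -0.04 and -0.20 with the length trend removed. With an assumed coefficient of variation of 0.2 between cultures none of the 3 differences passed, at an adjusted p of 1 from the normal test of the difference.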

How the results depend on the processing

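Each of the 9 genes was recomputed under every alternative, which gave 473 values. Of these, 427 kept their direction and their side of the threshold, 33 kept their direction and were no longer past it, 4 came past it and 9 changed sign. The 9 were small ratios: with the length trend removed or as an offset, Cd68 for IL-4 in wild-type (-0.039), Scarb2 for genotype without IL-4 (-0.0021), Cd163 (-0.046) and Stab1 (-0.12) for genotype with IL-4, and Msr1 (0.0029) and Cd68 (0.015) in the additive genotype effect; Msr1 for genotype with IL-4 under TMM (-0.0088) and CPM (-0.0056); and Scarb1 in the additive genotype effect under upper-quartile scaling (-0.026).

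Members called for IL-4 in wild-type went from 5 to 2 at a fold above 2, to 2 at an assumed coefficient of variation of 0.2 (Olr1 and Stab1) and to 0 at 0.4. In TIF1a-KO they went from 4 to 1, 1 (Olr1) and 0. For genotype without IL-4 the count went from 1 to 0, 0 and 0 under the same settings, and for genotype with IL-4 from 1 to 0, 0 and 0, and to 0 with a pseudocount of 1. The additive genotype effect called 1 of the 9 in the edgeR fit, 0 with all genes with a read and 0 with DESeq2, and 2 with upper-quartile scaling, 2 with the length offset and 2 with limma, Cd36 being the gene added. The cause was not tested. No count for the difference of responses moved from 0.

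Over all genes, calls ranged from 45 to 2030 for IL-4 in wild-type (1994 as reported), from 33 to 1491 in TIF1a-KO (1466), from 7 to 250 for genotype without IL-4 (247), from 11 to 623 for genotype with IL-4 (594), from 0 to 326 for the difference (326), from 1223 to 3906 for the additive IL-4 effect (2987) and from 24 to 624 for the additive genotype effect (196). Removing the length trend moved the share of higher calls from 38.4% to 49.8% for IL-4 in wild-type, from 80.0% to 69.0% for genotype with IL-4 and from 85.3% to 72.3% for the difference, and a length offset moved that of the additive genotype effect from 77.6% to 63.9%, with 67.0% under upper-quartile scaling. No paired analysis was possible because each group holds 1 library and the labels give no replicate numbers, and for the same reason no library could be left out. The additive model sets the IL-4 pairs of the genotypes side by side through its genotype term and holds no replicate block. Depth limits Cd163 and the untreated levels of Olr1.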
